A study of Homo sapiens with 20 samples.

Results

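The genes described here are the non-coding snoRNA host genes, spliced long RNA genes most of which carry small nucleolar RNAs (snoRNAs) in their introns. They were taken by name: every gene symbol made of SNHG and a number, together with GAS5, ZFAS1, DANCR, EPB41L4A-AS1 and CYTOR. This gave 33 of the 58233 gene identifiers counted in each library, on 15 chromosomes. Of the 33, 21 had enough reads to be tested in all 4 cell lines, 9 in some of them, and 3 (SNHG22, SNHG27 and SNHG28) in none, and SNHG27 had no read in any library. RefSeq lists at least 1 snoRNA or small Cajal body RNA (scaRNA) inside 30 of them, and none inside the other 3 (CYTOR, SNHG27 and SNHG28). The GENCODE annotation places SNORA70 in an intron of SNHG27 and SNORD64 in an intron of SNHG28, and none in CYTOR.

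A snoRNA host gene is transcribed and spliced like a messenger RNA, and its introns are trimmed to release the snoRNAs. Box C/D snoRNAs guide methylation and box H/ACA snoRNAs guide pseudouridylation of ribosomal RNA, while scaRNAs guide the same changes in spliceosomal RNAs. The spliced exons that remain hold only short open reading frames in most of these genes, and many of them, GAS5 being the classical case, are bound by ribosomes and removed by nonsense-mediated decay (NMD), so that the spliced RNA accumulates when translation or NMD is slowed. Several hosts also begin with a run of pyrimidines, the 5′ terminal oligopyrimidine (TOP) start shared with ribosomal protein genes.

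The libraries came from human lung cancer lines grown in culture: A549 and NCI-H1650, labelled as lung adenocarcinoma, HCC366, labelled as lung adenosquamous carcinoma, and NCI-H196, labelled as a variant form of small cell lung cancer. In every line, cells were transduced with a lentivirus carrying Cas9 and a single guide RNA (sgRNA) against ADAR, which encodes the RNA-editing enzyme ADAR1, or against GFP as the control. HCC366, NCI-H1650 and NCI-H196, the lines that depend on ADAR1 for growth, were otherwise untreated and were collected 5 days after transduction. A549, which tolerates the loss, received vehicle (sterile water) or 10 ng/mL interferon-β (IFN-β) for 24 h. Each of the 10 conditions had 2 libraries, which differed in the sgRNA used (sg1 and sg2), and all were pools of transduced cells, not clones. The labels do not say that the 2 libraries were separate cultures beyond the sgRNA, and the study's legend to its display of expression in these lines counts a single experiment, so p-values measure the spread between sgRNAs, which includes any difference between guides. Reads of all spliced forms of a gene are summed, and the sequence libraries hold RNA from which ribosomal RNA had been removed.

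The depth was between 62679 and 19520189 reads on genes per library, with a median of 6411279. The shallowest library, NCI-H196 GFP sg2, had 62679 reads, so that 1 read there stands for 14.7 CPM (counts scaled to a common library size, per 1e6 reads) and several hosts tested in that line, EPB41L4A-AS1, SNHG7, SNHG8, SNHG15 and DANCR among them, had no read there. In HCC366 ADAR sg2, 51.6% of the variance of log2 CPM around the line's mean went with GC content and length, against 0.191% to 35.5% in the rest of the series, and 85.6% of its alignments were not unique. ADAR itself had a lower mean in the ADAR KO libraries in each line and treatment. Its log2 fold change was -1.29 in NCI-H1650, -0.41 in NCI-H196, -1.08 in vehicle-treated A549 and -0.60 in IFN-β-treated A549 (edgeR adjusted p at most 0.00165), and in HCC366 it was -0.85 (adjusted p = 0.208). The keratins KRT8 and KRT18 were high in A549, HCC366 and NCI-H1650, but the other epithelial markers examined were not high in all of these lines. EPCAM and KRT19 were at or above 91.8 CPM in NCI-H1650 and at or under 1.87 CPM in A549 and HCC366. CDH1 was at or above 678 CPM in NCI-H1650, 16.6 to 61.2 CPM in A549 and 2.28 to 9.91 CPM in HCC366. NKX2-1 was at or under 0.57 CPM in every line. The squamous keratins KRT5 and KRT14 were at or under 3.42 CPM in HCC366. The squamous factor TP63 was at or under 4.08 CPM there, against 13.7 to 28.5 CPM in NCI-H196. The neuroendocrine factors INSM1 and NEUROD1 had no read in the 3 deeper NCI-H196 libraries. These markers were thus low or absent in the lines with the squamous and small-cell labels. Of the markers of blood cells, CD3E and HBB had no read in any library examined. PTPRC lay between 1.17 and 2.43 CPM and CD14 between 3.79 and 8.09 CPM in NCI-H196, and CD14 reached 7.76 CPM in HCC366. The shallowest library was left out of this marker check.

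By what RefSeq lists inside them, 13 hosts hold box C/D snoRNAs only, 11 box H/ACA snoRNAs only, 2 (GAS5 and SNHG12) both kinds, and 4 scaRNAs only. GAS5 holds 11 snoRNAs, of which 10 are box C/D, and SNHG1 holds 8 box C/D snoRNAs. SNHG12 and SNHG17 hold 4 each, all of them box H/ACA in SNHG17. SNHG29, ZFAS1 and SNHG16 hold 3 box C/D snoRNAs each, and SNHG32 and SNHG5 hold 2 each. Among the box H/ACA hosts, EPB41L4A-AS1 carries SNORA13, SNHG8 carries SNORA24, SNHG15 carries SNORA9 and DANCR carries SNORA26. SNHG14, with 83 box C/D snoRNAs, is the long transcript of the imprinted region on chromosome 15.

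The starts of these genes were read from RefSeq promoters of the build GRCh38.p14, which are not in the coordinates of the counted genes. A window of 10 bases before and 30 bases from the annotated start is shown for the hosts on which the results turn, on the gene's own strand from 5′ to 3′. The capitals mark the unbroken run of C and T that opens the transcript, and the windows are shown because the members that changed include both kinds of start. The first 6 open with at least 5 pyrimidines, the TOP-like starts among the hosts that changed.
SNHG12 (chr1:28581844-28581883, minus strand): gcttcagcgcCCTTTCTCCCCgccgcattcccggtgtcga
SNHG32 (chr6:31834906-31834945, plus strand): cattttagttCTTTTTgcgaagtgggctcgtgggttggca
ZFAS1 (chr20:49278632-49278671, plus strand): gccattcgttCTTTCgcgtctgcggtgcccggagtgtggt
SNHG5 (chr6:85678704-85678743, minus strand): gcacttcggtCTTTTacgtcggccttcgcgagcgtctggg
SNHG4 (chr5:139274091-139274130, plus strand): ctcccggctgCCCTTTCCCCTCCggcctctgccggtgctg
SNHG19 (chr16:2155329-2155368, minus strand): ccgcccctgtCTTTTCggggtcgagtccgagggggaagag
The next 6 do not, although SNHG1 opens with 3.
EPB41L4A-AS1 (chr5:112160516-112160555, plus strand): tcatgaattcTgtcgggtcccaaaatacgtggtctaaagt
GAS5 (chr1:173869016-173869055, minus strand): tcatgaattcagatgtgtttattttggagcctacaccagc
SNHG1 (chr11:62855856-62855895, minus strand): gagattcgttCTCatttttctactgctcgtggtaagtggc
SNHG8 (chr4:118278752-118278791, plus strand): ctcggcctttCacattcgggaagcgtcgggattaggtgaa
CYTOR (chr2:87455417-87455456, plus strand): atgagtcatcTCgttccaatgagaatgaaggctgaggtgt
SNHG17 (chr20:38435299-38435338, minus strand): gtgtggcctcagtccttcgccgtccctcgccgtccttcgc
Of the 29 hosts whose start could be read, 7 (24.1%) open with 5 or more pyrimidines (C or T at each of the first 5 positions, gene strand only), against 5.17% of 35116 RefSeq promoters. Annotated starts differ between annotations and between transcripts of a gene, so a window without the run says only that this start lacks it. For GAS5 the RefSeq start lies upstream of the canonical start of GENCODE, so its window does not show the latter. The 10 bases before the start happen to be the same letters in GAS5 and EPB41L4A-AS1, while the sequence on either side differs.

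In the control libraries, with all 20 libraries scaled together, the lines differed in which hosts they expressed. SNHG5 stood at 213 ± 4.19 CPM (SD, n = 2 libraries) in vehicle-treated A549 GFP cells, against 34.8 ± 4.79 in NCI-H196, 17.8 ± 0.141 in HCC366 and 14.8 ± 0.528 in NCI-H1650. SNHG4 and SNHG19 were also higher in A549, at 31.6 ± 1.63 and 25.3 ± 1.25 CPM, than in the other lines, where their means lay between 1.41 and 10.9 CPM. SNHG32 went the other way, from 39.2 ± 0.162 CPM in A549 to 58.6 ± 6.01 in NCI-H1650, 88.3 ± 1.46 in HCC366 and 149 ± 10.9 in NCI-H196. SNHG18 stood at 16.6 ± 0.739 CPM in NCI-H1650 and had no read in the A549 and HCC366 controls. GAS5 ranged from 89.2 ± 10.9 CPM in HCC366 to 173 ± 2.24 in A549, with NCI-H1650 (143 ± 3.78) and NCI-H196 (126 ± 44.9) between them. The NCI-H196 value has the shallow library in it, and its SD reaches the means of HCC366 and NCI-H1650, so its place in this order is not settled. These differences between lines were described and not tested. Together the hosts took between 0.0957% and 0.188% of a library's reads on genes. The highest shares were in the HCC366 ADAR libraries (0.173% and 0.188%, against 0.105% and 0.114% in the controls) and in the A549 ADAR libraries with IFN-β (0.158% and 0.180%, against 0.1203% and 0.1247% in GFP with IFN-β).

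**Figure D1:**
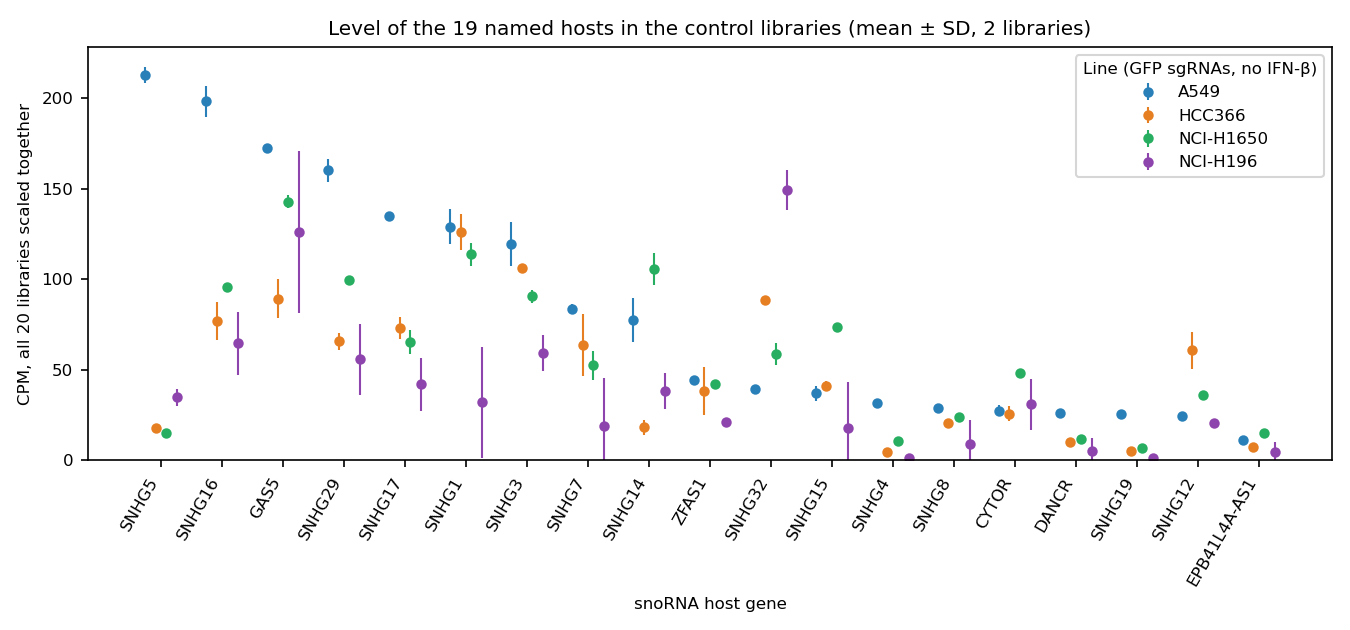
Level of the 19 hosts named in the text in the GFP control libraries of each line without IFN-β, in CPM with all 20 libraries scaled together (points are means of 2 libraries, bars are SDs and are not drawn below 0). SNHG5 stands at 213 CPM in A549 and between 14.8 and 34.8 CPM in the other lines, while SNHG32 is highest in NCI-H196.

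All further levels are CPM scaled by TMM within 1 cell line, and all differences are log2 fold changes with their standard errors (SE) from edgeR's quasi-likelihood test, adjusted by Benjamini and Hochberg over all genes tested, with a threshold of 0.05. In all, 18 of the 30 tested hosts passed the threshold in at least 1 of 9 comparisons, as did 35.9% of all 18319 genes tested. Of these hosts, 13 only rose and 5 only fell, and none did both, where 20.2% of all genes only rose, 14.2% only fell and 1.57% did both. Since the members are compared across lines with unlike depth and spread, a host past the threshold in 1 line and not in another is not thereby shown to differ between them.

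**Figure D2:**
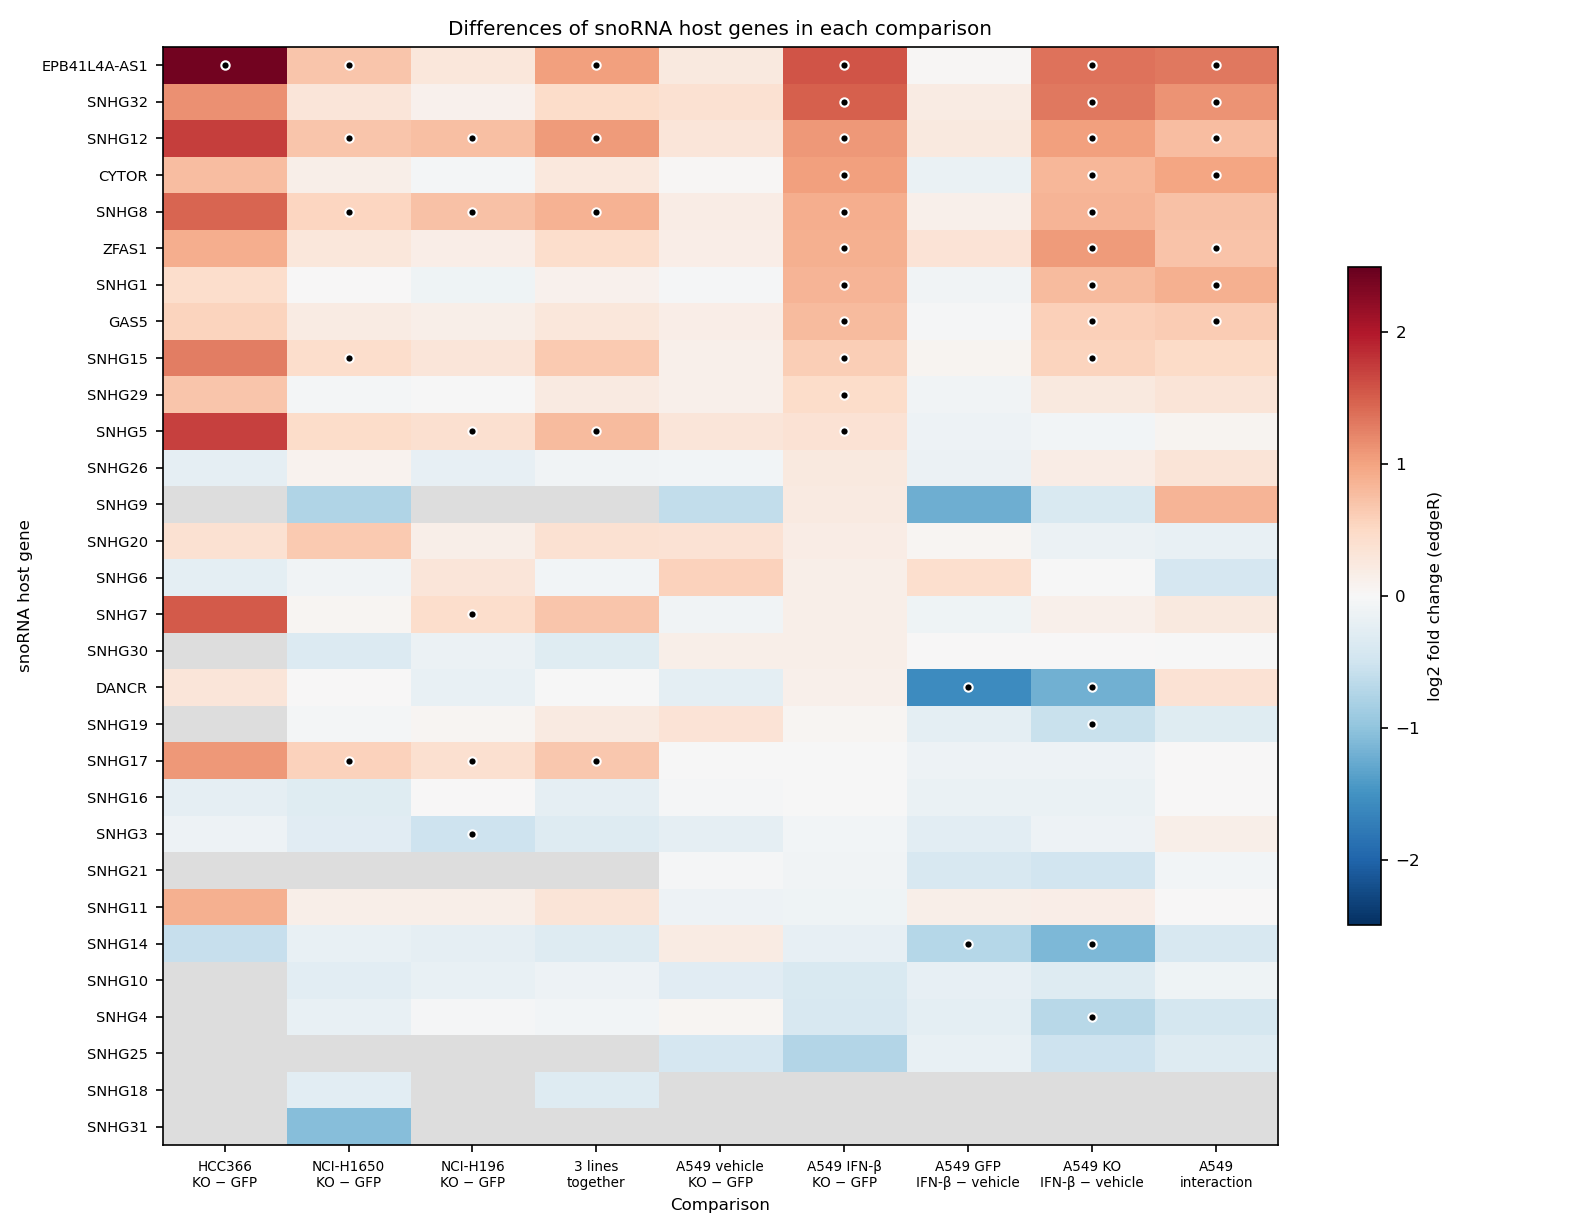
Log2 fold change (colour) of the 30 tested hosts in the 9 comparisons, ordered by the ADAR KO difference in A549 with IFN-β; black dots mark adjusted p under 0.05 and grey marks hosts not tested. The first 11 hosts rose in A549 with IFN-β, EPB41L4A-AS1 the most at 1.58, and the column of vehicle-treated A549 has no dot.

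The comparison of ADAR KO with GFP in vehicle-treated A549 asks what loss of the enzyme does without interferon in a line that tolerates it. No host of 28 passed the threshold, where 0.123% of all 15449 genes tested did (0.0324% higher, 0.0906% lower). At an unadjusted p under 0.05 there were 3 hosts, and DESeq2's Wald test also called none. The median log2 fold change of the hosts was 0.09, against 0.00 over all genes tested. SNHG6, the host of SNORD87, picked out here after its values were seen, had the largest positive value, 0.58 ± 0.16 (SE, adjusted p = 0.387), with 19.9 and 18.9 CPM in GFP and 29.2 and 28.6 CPM in ADAR KO. Its annotated exons also match MCMDC2 on the other strand. SNHG5 read 173 and 173 CPM in GFP and 209 and 215 CPM in ADAR KO (0.29 ± 0.10, adjusted p = 0.816). In every comparison its exons overlap PKMP3 and a gene without a symbol on the same strand. The latter matches 56.7% of SNHG5 at 100% identity, and how reads were divided between them was not tested. GAS5 had 0.17, ZFAS1 0.17, EPB41L4A-AS1 0.25, CYTOR 0.03, SNHG1 -0.04 and DANCR -0.24, each with an adjusted p of 0.998. In 10 of the 28 hosts both ADAR libraries lay above both GFP libraries and in 5 both lay below, where 18.8% and 17.8% of all genes tested did so.

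The same knockout was then compared in A549 cells that had received IFN-β. Of the 28 hosts, 11 were higher in ADAR KO than in GFP and none was lower, where 17% of all genes tested were called, 10.8% as higher and 6.19% as lower. The members' median was 0.17, against -0.01 over all genes tested, and the other 17 were not past the threshold. In bulk RNA of a pool, a change in every cell and one in a share of the cells cannot be told apart. Among 1438 other long non-coding RNA genes tested, 55 rose and 23 fell, with a median of -0.03. Both ADAR libraries lay above both GFP libraries in 15 hosts and below in 4, where 28.2% and 27.5% of all genes did.

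The box C/D hosts gave 5 of the 11. SNHG32, on chromosome 6 (chr6:31802385-31807543 in GRCh37), read 36.9 and 36.3 CPM in GFP and 86.8 and 119 CPM in ADAR KO, a 2.82-fold difference (log2 1.496 ± 0.133, adjusted p = 8.79e-10). The lower ADAR library was more than 2 times the higher control, and the spread within ADAR KO was wider than in GFP. ZFAS1 (chr20:47894715-47916137) read 47.6 and 43.96 CPM in GFP and 78.8 and 89.5 in ADAR KO (0.88 ± 0.12, adjusted p = 3.74e-06). Its exons overlap ZNFX1 on the other strand, an interferon-induced gene whose own difference between ADAR KO and GFP here was -0.07 (adjusted p = 0.661). SNHG1 (chr11:62619450-62623425) read 109 and 87.5 CPM in GFP and 151 and 199 in ADAR KO (0.84 ± 0.13, adjusted p = 1.73e-05). SNHG29 rose by 0.46 ± 0.10, from 122 and 124 CPM to 167 and 172. SNHG5 rose by 0.37 ± 0.10, from 159 and 156 CPM to 205 and 202. These last were the smallest of the 11 differences, yet neither set of libraries overlapped.

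GAS5 and SNHG12, which hold both kinds of snoRNA, rose too. GAS5 (chr1:173827697-173838020), the growth-arrest transcript whose spliced RNA is a textbook NMD substrate, read 147 and 129 CPM in GFP and 207 and 269 CPM in ADAR KO (1.74-fold, log2 0.80 ± 0.12, adjusted p = 7.19e-06). SNHG12 (chr1:28905050-28909644) read 24.3 and 23.0 CPM in GFP and 44.7 and 54.7 in ADAR KO, 2.11-fold (1.079 ± 0.143, adjusted p = 1.95e-06).

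Of the box H/ACA hosts, 3 rose. EPB41L4A-AS1 (chr5:111496223-111500515) had the largest log2 fold change of all hosts, from 9.003 and 9.811 CPM in GFP to 26.6 and 29.6 CPM in ADAR KO, 2.98-fold (1.58 ± 0.20, adjusted p = 6.43e-07). The protein-coding EPB41L4A, on the other strand, was at 3.10 CPM in GFP and 1.94 CPM in ADAR KO on average (-0.67, adjusted p = 0.234). SNHG8 read 21.5 and 29.3 CPM in GFP and 45.4 and 50.7 in ADAR KO (0.92 ± 0.15, adjusted p = 6.76e-05), and SNHG15 30.5 and 32.4 CPM in GFP and 44.1 and 52.2 in ADAR KO (0.62 ± 0.14, adjusted p = 0.00167). In both hosts every ADAR library was above every GFP library.

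CYTOR, a cytoplasmic lncRNA with no snoRNA listed in it, rose from 19.7 and 19.8 CPM to 35.3 and 44.01 CPM (1.02 ± 0.16, adjusted p = 2.44e-05). Its sequence is nearly repeated in MIR4435-2HG (99.5% identity over 62.6% of CYTOR), which rose by 0.85 (adjusted p = 4.56e-06). Reads of this pair may be shared between them, so neither value is certain on its own.

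Among the hosts that did not pass the threshold in these libraries were SNHG16, SNHG17, SNHG3, SNHG7, SNHG4 and DANCR. SNHG16, a box C/D host, read 151 and 136 CPM in GFP and 144 and 139 in ADAR KO (-0.02 ± 0.10, adjusted p = 0.936). SNHG17 read 91.8 and 109 CPM in GFP and 94.9 and 105 in ADAR KO (-0.01 ± 0.11, adjusted p = 0.974), and SNHG3 89.8 and 71.8 CPM in GFP and 74.2 and 78.6 in ADAR KO (-0.08 ± 0.12, adjusted p = 0.707). The libraries of these 3 hosts overlapped. SNHG7 was at 58.6 and 65.9 CPM in GFP and 69.3 and 69.4 in ADAR KO (0.15 ± 0.11, adjusted p = 0.387). SNHG4 had a log2 fold change of -0.40 ± 0.16 (adjusted p = 0.0839), with 22.2 and 21.0 CPM in GFP and 15.97 and 16.67 in ADAR KO, which did not overlap, and DANCR 0.12 ± 0.21 (adjusted p = 0.738).

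By class, 5 of 12 box C/D hosts tested rose (median log2 fold change 0.20), 3 of 10 box H/ACA hosts (0.14), both mixed hosts (0.94) and none of the 3 scaRNA hosts (-0.09). Of the 6 tested hosts whose RefSeq start opens with 5 pyrimidines, 4 rose (SNHG32, SNHG12, ZFAS1 and SNHG5, median of the 6 0.63), and SNHG4 and SNHG19 did not. Of 18 whose RefSeq start lacks this run, 6 rose, with a median of 0.15. GAS5 is among these 6, although its window does not show the canonical start of GENCODE. These are counts of a few genes, given without a test. The vehicle libraries are not part of this contrast and enter it only through the shared spread, so leaving 1 of them out tests it little. Leaving out a library with IFN-β leaves 1 in its group. The members' median then lay between 0.12 and 0.29, against 0.17 with all libraries. Without ADAR IFN-β sg2 fewer hosts passed, and fewer of all genes passed too.

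**Figure D3:**
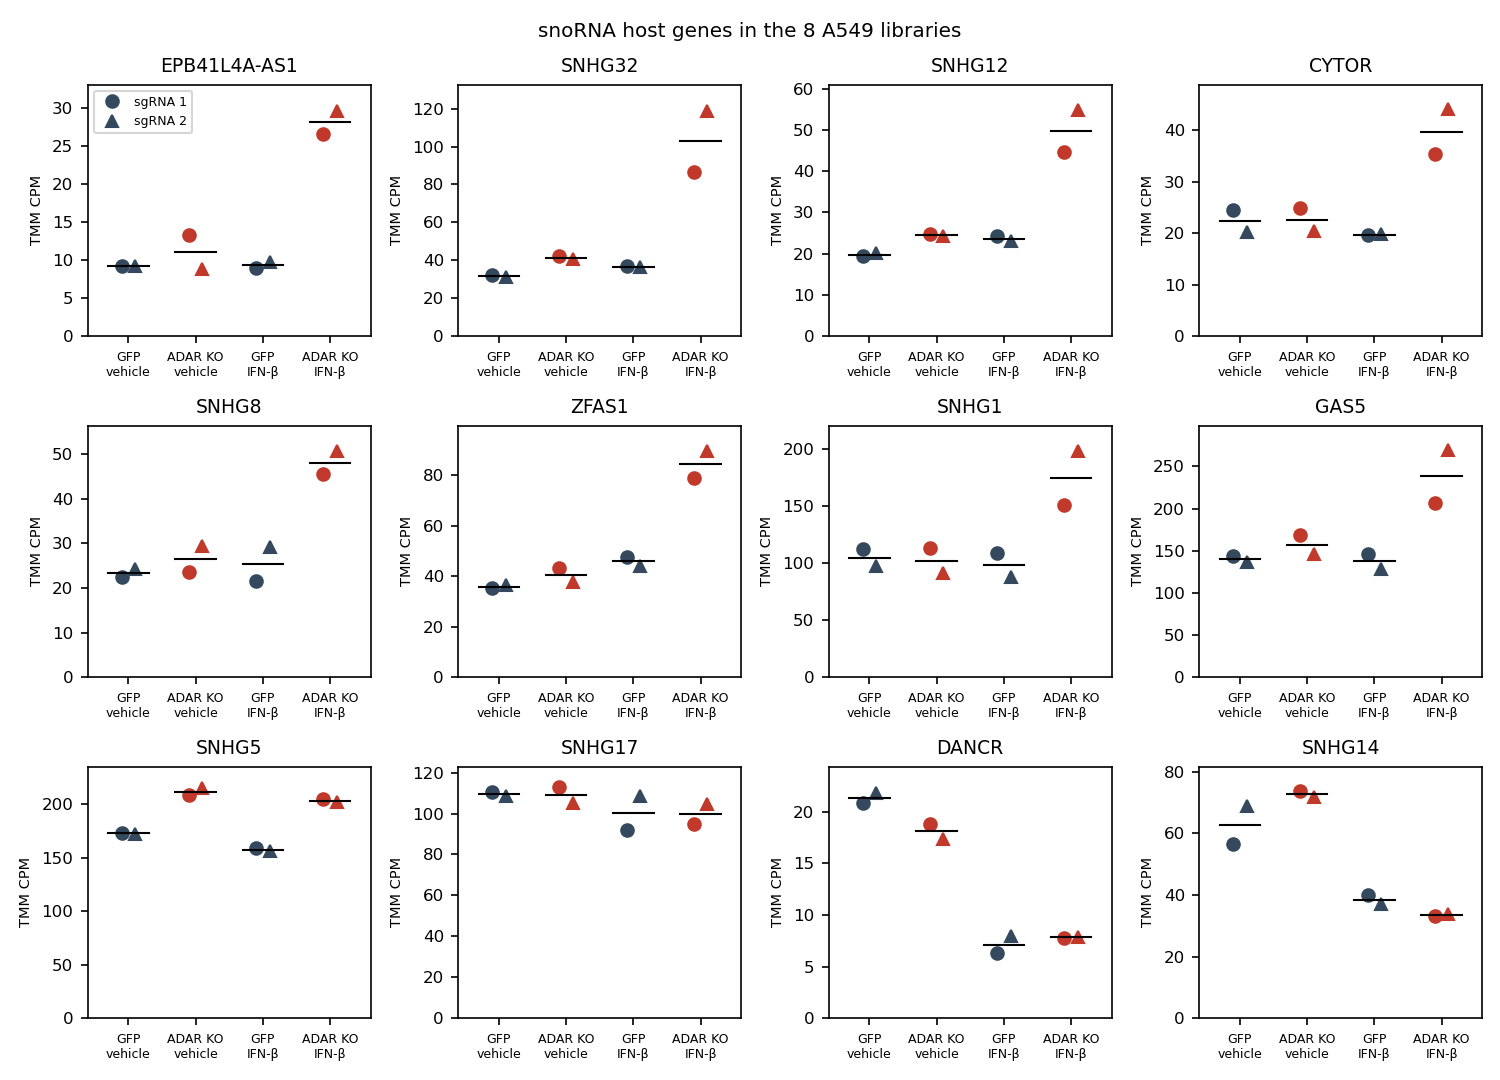
TMM CPM of 12 hosts in each of the 8 A549 libraries (circles sg1, triangles sg2, lines the mean of 2 libraries, vertical axes from 0). For the first 8 hosts both ADAR KO libraries with IFN-β lie above all 6 others, SNHG17 is level, and DANCR and SNHG14 are low in all 4 IFN-β libraries.

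IFN-β itself was compared with vehicle first in the GFP cells of A549. No host rose and 2 of 28 fell, where 5.70% of all genes tested were called (4.39% higher, 1.31% lower). The median was -0.12, against 0.00 over all genes. DANCR (chr4:53578492-53589790), known for holding back differentiation of progenitor cells, read 20.9 and 21.8 CPM with vehicle and 6.28 and 7.95 with IFN-β, 2.97-fold lower (-1.57 ± 0.20, adjusted p = 8.28e-07). SNHG14 read 56.7 and 69.0 CPM with vehicle and 40.04 and 36.95 with IFN-β (-0.72 ± 0.13, adjusted p = 0.00015). Neither pair of conditions overlapped. SNHG14 shares exons with several genes of the same strand, SNRPN among them (-0.38, adjusted p = 0.786), and DANCR shares exons with LINC01618. ZFAS1 had 0.35 (adjusted p = 0.126), with 35.2 and 36.5 CPM with vehicle and 47.6 and 43.96 with IFN-β. CYTOR had -0.17, SNHG1 -0.10, GAS5 -0.03 and EPB41L4A-AS1 0.03, with adjusted p between 0.724 and 0.976. ZNFX1, opposite ZFAS1, rose by 2.35 in the same cells (adjusted p = 1.79e-18). The strand setting used in counting is not given in the sources used here, and whether its reads enter ZFAS1 was not tested. In 4 hosts both IFN-β libraries lay above both vehicle libraries and in 11 below, where 21.7% and 20.3% of all genes did.

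In ADAR KO cells of A549, IFN-β moved 13 of 28 hosts, 9 up and 4 down, where 24.5% of all genes tested were called (15.5% higher, 9.04% lower). The vehicle libraries of this comparison are also the ADAR libraries of the vehicle comparison, and its IFN-β libraries those of the IFN-β comparison, so its values are not independent of either. EPB41L4A-AS1 went from 13.3 and 8.85 CPM to 26.6 and 29.6 (1.36 ± 0.20), SNHG32 from 42.2 and 40.7 to 86.8 and 119 (1.32 ± 0.13), and ZFAS1 from 43.2 and 37.8 to 78.8 and 89.5 (1.06 ± 0.13). SNHG12 (1.02), SNHG8 (0.85), CYTOR (0.82), SNHG1 (0.78), GAS5 (0.60) and SNHG15 (0.55) also rose, with adjusted p between 3.17e-06 and 0.00357. DANCR fell again, from 18.8 and 17.4 CPM to 7.78 and 7.87 (-1.21 ± 0.20, adjusted p = 3.46e-05), and SNHG14 from 73.7 and 71.8 to 33.1 and 33.9 (-1.12 ± 0.13, adjusted p = 4.64e-08). SNHG4 fell by 0.69 (adjusted p = 0.00175) and SNHG19 by 0.55 (adjusted p = 0.0154). SNHG4 shares exons with MATR3 on the same strand. Both IFN-β libraries lay above both vehicle libraries in 13 hosts and below in 11, where 33.3% and 30.9% of all genes did.

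The interaction asks whether the response to IFN-β differed between ADAR KO and GFP cells. It was positive and past the threshold in 7 of 28 hosts and negative in none, where 5.05% of all genes tested were called and 4.07% were positive. The members' median was 0.20, against 0.00 over all genes. EPB41L4A-AS1 had 1.33 ± 0.29 (adjusted p = 0.00502), SNHG32 1.12 ± 0.19 (adjusted p = 0.000348), CYTOR 0.99 ± 0.23 (adjusted p = 0.00818) and SNHG1 0.88 ± 0.18 (adjusted p = 0.00281). SNHG12 (0.77), ZFAS1 (0.71) and GAS5 (0.63) also passed, with adjusted p from 0.0161 to 0.0298. SNHG8 had 0.73 ± 0.23 (adjusted p = 0.0541) and SNHG15 0.49 ± 0.20 (adjusted p = 0.168). For DANCR it was 0.36 ± 0.29 (adjusted p = 0.545), so a difference in its response between the genotypes was not shown. Fewer hosts passed without GFP vehicle sg1, GFP vehicle sg2, ADAR vehicle sg2 or ADAR IFN-β sg2, and fewer of all genes passed too. Each of these fits leaves 1 library in a group. The members' median was 0.21, 0.18, 0.26 and 0.18 in them, and SNHG32 was past the threshold in all of them.

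The ADAR1-dependent lines put the same question to cells without added IFN-β. In HCC366, 1 of 21 hosts passed the threshold, where 1.25% of all 11135 genes tested did (1.20% higher, 0.0449% lower), but the members' median was 0.78, against -0.01 over all genes. That host was EPB41L4A-AS1, with 9.30 and 6.88 CPM in GFP and 33.2 and 50.4 CPM in ADAR KO, 5.35-fold (2.42 ± 0.43, adjusted p = 0.0394). Its opposite-strand gene EPB41L4A had -0.13 (adjusted p = 0.873). Both ADAR libraries lay above both GFP libraries in 12 hosts and below in 1, where 25.1% and 27.3% of all genes did, and 9 hosts had an unadjusted p under 0.05.

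Among the other HCC366 hosts, SNHG12 read 73.6 and 57.0 CPM in GFP and 143 and 290 in ADAR KO (1.74 ± 0.42, adjusted p = 0.089). SNHG5 read 19.4 and 18.9 CPM in GFP and 61.2 and 64.0 in ADAR KO (1.71 ± 0.35, adjusted p = 0.0618), a difference that the 2 sgRNAs gave alike. The overlap of SNHG5 with other genes on its strand holds here as well. SNHG7 read 82.1 and 55.0 CPM in GFP and 126 and 268 in ADAR KO (1.54 ± 0.44, adjusted p = 0.135), and SNHG17 83.7 and 73.3 against 105 and 225 (1.079 ± 0.414, adjusted p = 0.225). In SNHG12, SNHG7 and SNHG17 the higher value was that of ADAR sg2, the library with the strong dependence on GC content and length. With offsets for GC content and length in every library, the difference was 1.40 for SNHG12 (adjusted p = 0.00411), 0.82 for SNHG7 (adjusted p = 0.0328) and 0.75 for SNHG17 (adjusted p = 0.0624). Without offsets, ZFAS1 had 0.91 (adjusted p = 0.255), CYTOR 0.78 (0.298), GAS5 0.56 (0.383), SNHG1 0.43 (0.543) and DANCR 0.30 (0.781). Without ADAR sg2, 1 ADAR library stood against 2 GFP libraries, so that the spread came from the GFP libraries alone and the lone library is assumed to vary like them. In that fit 1095 of all 11135 genes tested were called, and 9 hosts were higher in ADAR KO and none lower: EPB41L4A-AS1 (2.14), SNHG5 (1.70), SNHG12 (1.18), SNHG8 (1.11), SNHG7 (0.95), SNHG15 (0.89), SNHG1 (0.82), SNHG32 (0.81) and SNHG29 (0.67). With the offsets, 1090 of all 11135 genes were called and 7 hosts were higher, EPB41L4A-AS1, SNHG8, SNHG5, SNHG12, SNHG32, SNHG15 and SNHG7. Without ADAR sg1, which leaves the GC-dependent library alone, 13 hosts were called higher and 4 lower, in a fit that called 6084 of all 11135 genes, and none passed without GFP sg1 or without GFP sg2.

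In NCI-H1650, whose libraries were closest in depth, 5 of 28 hosts rose in ADAR KO and none fell, where 8.60% of all 14530 genes tested were called and 6.18% were higher. The median over hosts was 0.03, against 0.01 over all genes. SNHG12 read 41.7 and 39.7 CPM in GFP and 67.4 and 64.5 in ADAR KO (0.70 ± 0.13, adjusted p = 0.000154), and EPB41L4A-AS1 18.5 and 15.1 against 24.7 and 30.3 (0.70 ± 0.18, adjusted p = 0.00691). SNHG17 read 67.9 and 79.8 CPM in GFP and 111 and 108 in ADAR KO (0.57 ± 0.12, adjusted p = 0.000525). SNHG8 (0.53 ± 0.15, adjusted p = 0.0187) and SNHG15 (0.45 ± 0.11, adjusted p = 0.00607) also rose, and in all 5 hosts the libraries did not overlap. GAS5 read 163 and 160 CPM in GFP and 184 and 189 in ADAR KO (0.21 ± 0.10, adjusted p = 0.228), and SNHG1 132 and 125 against 124 and 133 (0.00 ± 0.11, adjusted p = 0.999). SNHG16 had -0.31 ± 0.11 (adjusted p = 0.0773), ZFAS1 0.28 (0.2), CYTOR 0.15 (0.553) and DANCR 0.01 (0.986). Both ADAR libraries lay above both GFP libraries in 11 hosts and below in 8, where 26.2% and 24.3% of all genes did. With any 1 library left out, which leaves 1 in its group, fewer hosts and fewer of all genes passed. The median over hosts then lay between 0.01 and 0.04. DESeq2's Wald test called 2 hosts and 413 of all 33364 genes tested.

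In NCI-H196, 5 of 25 hosts rose and 1 fell, where 17.8% of all 14094 genes tested were called (10.3% higher, 7.50% lower). The median was 0.10, against 0.00 over all genes. SNHG12 read 23.2 CPM (208 reads) in GFP sg1 and 29.3 CPM (2 reads) in GFP sg2, and 38.6 and 39.5 CPM in ADAR KO (0.76 ± 0.17, adjusted p = 0.000253). SNHG8 read 21.2 CPM in GFP sg1 and had no read in sg2, where 3 reads would be 43.98 CPM, and stood at 33.5 and 35.1 CPM in ADAR KO (0.73 ± 0.18, adjusted p = 0.000724). Both controls thus rest on sg1 alone.

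SNHG7 (0.45 ± 0.15, adjusted p = 0.0187), SNHG17 (0.40 ± 0.13, adjusted p = 0.0171) and SNHG5 (0.40 ± 0.15, adjusted p = 0.0376) also rose in NCI-H196. In GFP sg2, SNHG7 had no read and SNHG17 and SNHG5 had 3 reads each, so these controls rest on sg1 too. SNHG3, the host of SNORA73A and SNORA73B, read 75.8 CPM (680 reads) in GFP sg1 and 73.3 CPM (5 reads) in GFP sg2, and 54.8 and 52.9 CPM in ADAR KO (-0.51 ± 0.14, adjusted p = 0.00247). It shares exons with RCC1 on the same strand, which had -0.22 (adjusted p = 0.304). GAS5 read 181 and 132 CPM in GFP and 182 and 206 in ADAR KO (0.15 ± 0.10, adjusted p = 0.335), and EPB41L4A-AS1 9.81 CPM and no read in GFP and 7.11 and 12.6 CPM in ADAR KO (0.28 ± 0.26, adjusted p = 0.499). ZFAS1 had 0.17, CYTOR -0.05, SNHG1 -0.11 and DANCR -0.20, with adjusted p between 0.575 and 0.873. Both ADAR libraries lay above both GFP libraries in 8 hosts and below in 3, where 25.6% and 15% of all genes did. A fit with a library left out sets 1 library against 2, so its spread comes from the group of 2 alone, and the calls did not hold in all of these fits. The median over hosts was 0.11 without GFP sg2, 0.08 without ADAR sg1 and 0.03 without ADAR sg2. Without GFP sg1 it was 0.61, with the shallow GFP sg2 library as the only control. DESeq2's Wald test called none of the hosts, and 5 of all 33113 genes tested.

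**Figure D4:**
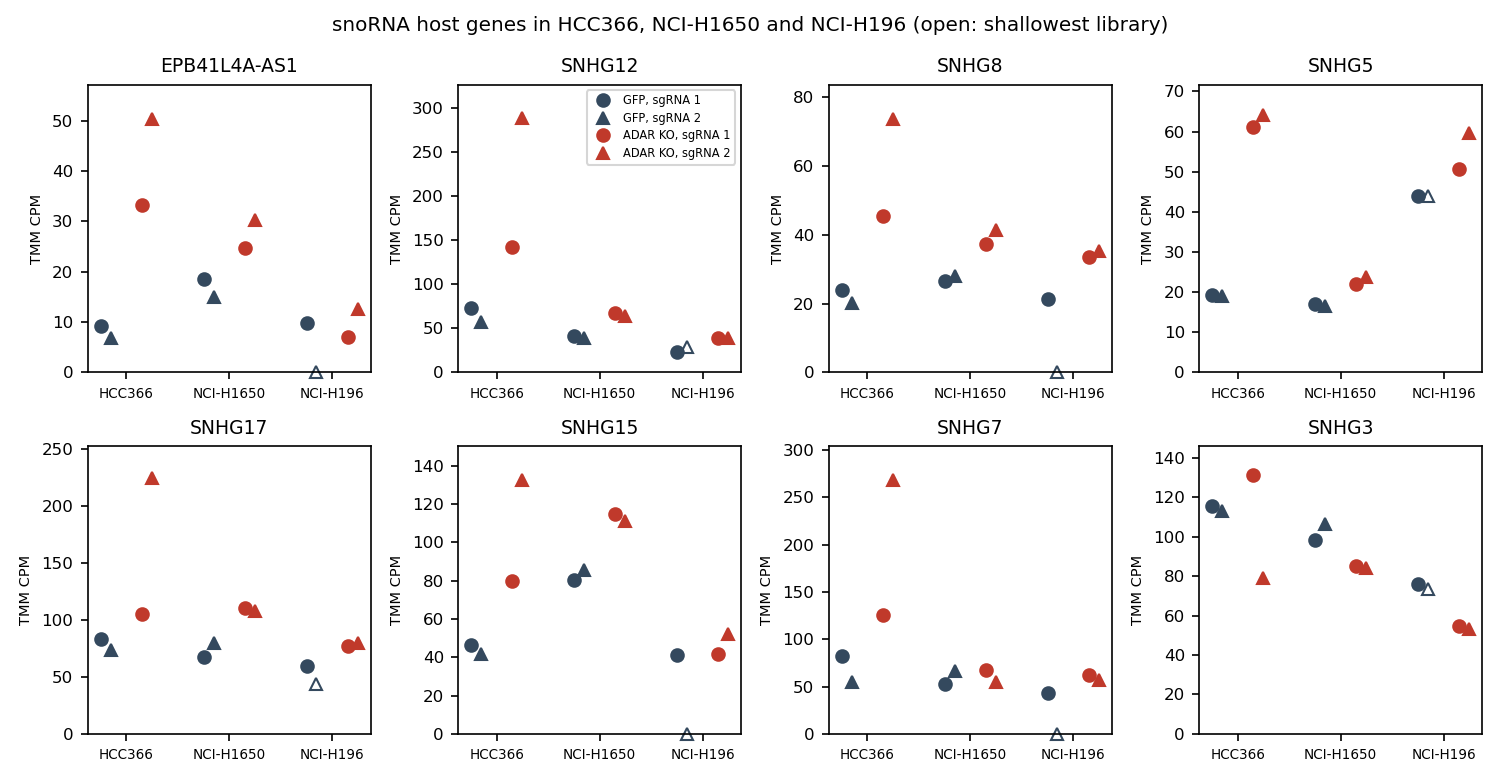
TMM CPM of 8 hosts in the libraries of HCC366, NCI-H1650 and NCI-H196 (blue GFP, red ADAR KO, circles sg1, triangles sg2, vertical axes from 0; the open triangle is the library of 62679 reads). SNHG12 and SNHG8 are higher in both ADAR KO libraries in each line, and SNHG3 is lower in NCI-H196.

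Taking the 12 libraries of these lines in 1 fit with the line as covariate, 5 of 26 hosts rose in ADAR KO and none fell, where 5.30% of all 16538 genes tested were called and 4.28% were higher. The median was 0.24, against -0.01 over all genes. SNHG12 had 1.06 ± 0.20 (2.08-fold, adjusted p = 0.00472), EPB41L4A-AS1 1.03 ± 0.27 (adjusted p = 0.0332), SNHG8 0.86 ± 0.19 (adjusted p = 0.0122), SNHG5 0.78 ± 0.19 (adjusted p = 0.0234) and SNHG17 0.68 ± 0.17 (adjusted p = 0.0304). SNHG15 was just outside the threshold (0.66 ± 0.20, adjusted p = 0.0555). GAS5 (0.29 ± 0.13, adjusted p = 0.182), ZFAS1 (0.44 ± 0.16, adjusted p = 0.106) SNHG1 (0.10 ± 0.17, adjusted p = 0.768), CYTOR (0.26, adjusted p = 0.317) and DANCR (0.00, adjusted p = 0.996) did not pass. SNHG12 and SNHG8 passed in all 20 alternatives tried. The count was 2 without HCC366 GFP sg1, 2 without HCC366 GFP sg2, and 3 without NCI-H196 GFP sg2, without NCI-H196 ADAR sg2 or without NCI-H1650 ADAR sg2. These fits called 308 to 538 of all 16538 genes, against 876 in the main fit.

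Counted by line, 13 of 30 hosts rose with ADAR KO in at least 1 line, as did 16.3% of all 18319 genes tested. EPB41L4A-AS1 (A549, HCC366 and NCI-H1650), SNHG12 and SNHG8 (each in A549, NCI-H1650 and NCI-H196) did so in 3 lines, SNHG5, SNHG15 and SNHG17 in 2, and 7 in 1, where 1.36%, 2.90% and 11.8% of all genes did so. No host rose in all 4 lines, where 0.246% of all genes did. In A549 these were all rises with IFN-β present.

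Whether the knockout difference itself was unlike in A549 was tested in a fit of all 20 libraries, a test added after the other results had been seen. Against vehicle-treated A549, none of 30 hosts differed by edgeR, where 0.953% of all 19523 genes tested did, with 9 hosts at an unadjusted p under 0.05 and 1 by DESeq2. Against IFN-β-treated A549, 1 differed, where 2.07% of all genes did: SNHG32, whose difference in the 3 lines was smaller by 0.98 ± 0.22 (log2 scale, adjusted p = 0.0161) than in A549 with IFN-β. For SNHG17, level in A549 and raised in the 3 lines, the difference against A549 with IFN-β was 0.73 ± 0.24 (adjusted p = 0.0891), not past the threshold.

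The proteins that act on these RNAs were described by lists. The 10 NMD factors include UPF1, the central helicase, and SMG1, its kinase. In A549 with IFN-β, 5 of the 10 rose in ADAR KO and none fell (among them UPF3B 0.64, SMG9 0.42, UPF2 0.42 and SMG5 0.31, adjusted p between 0.0145 and 0.0411), where 10.8% of all genes tested were higher. With IFN-β against vehicle in ADAR KO cells 5 rose as well, where 15.5% of all genes were higher. UPF1 rose by 0.38 in NCI-H196 (adjusted p = 0.00358), where 10.3% of all genes tested were higher. None of the 10 passed in HCC366, NCI-H1650, vehicle-treated A549, GFP cells with IFN-β or the 3 lines together by edgeR, with 2, 2, 0, 1 and 2 at an unadjusted p under 0.05. Of the 9 core proteins of snoRNA particles, FBL (fibrillarin, the box C/D methyltransferase, -0.38) and NHP2 (box H/ACA, -0.40) fell in ADAR KO of A549 with IFN-β, FBL in NCI-H196 (-0.45) and DKC1, the pseudouridine synthase, in NCI-H1650 (-0.38), and none rose in any of the 9 comparisons. Of all genes tested, 6.19% were lower in A549 with IFN-β, 7.50% in NCI-H196 and 2.42% in NCI-H1650. These few calls are therefore not by themselves a result about the list.

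Protein-coding genes that host snoRNAs form a list with the same intronic cargo and a coding message. Of 24, 4 rose and 2 fell in ADAR KO of A549 with IFN-β, with a median of 0.00, where 10.8% of all genes tested were higher and 6.19% lower, and where the non-coding hosts had 11 and 0 of 28 and a median of 0.17. Those that rose were TAF1D (1.07, adjusted p = 3.26e-08), EIF4A2 (0.84, adjusted p = 2.46e-06), DDX39B (0.66, adjusted p = 0.00059) and CCAR1 (0.33, adjusted p = 0.0246). HSPA8 (-0.39) and NCL (-0.28), a chaperone and a nucleolar protein, fell. TAF1D, a factor of RNA polymerase I, also passed in the interaction (1.14, adjusted p = 2.24e-05). In NCI-H196, DDX39B (0.37) and PRRC2A (0.31) rose and EEF1B2 (-0.54) and ATP5F1B (-0.32) fell, with adjusted p between 2.4e-05 and 0.0328, where 17.8% of all genes tested passed. In NCI-H1650 DKC1 (-0.38) fell, where 2.42% of all genes tested were lower. In the 3 dependent lines together none of the 24 passed by edgeR, with 6 at an unadjusted p under 0.05.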

How the data were processed

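RNA depleted of ribosomal RNA was made into strand-marking libraries and sequenced paired-end. The authors aligned reads to hg19 with STAR and deposited HTSeq read counts per gene, which are raw counts, 1 file per library. Versions, annotation release and the strand setting of the counting are not given in the sources used here. HTSeq's summary lines were left out of library sizes and tests.

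From these counts, genes were filtered with filterByExpr, scaled by TMM and tested with edgeR 4.0.16 (R 4.3.3) by the quasi-likelihood F test with Benjamini-Hochberg adjustment at 0.05: 2 against 2 libraries in HCC366, NCI-H1650 and NCI-H196, 8 libraries in A549, and 12 with the line as covariate. CPM are TMM-scaled within a line. DESeq2 1.42.0, other size factors, no filter, offsets for GC content and length, the sgRNA number as a block, all 20 libraries in 1 fit, each library left out, and members without overlapping genes were the alternatives. The scripts were tested on simulated data.

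Coordinates of genes are GRCh37 (GENCODE), and nested snoRNAs, apart from those of SNHG27 and SNHG28, and starts are from RefSeq GRCh38.p14. Near-identical copies had at least 95% identity over at least 50% of the member (blastn). Named with values were GAS5, ZFAS1, DANCR, EPB41L4A-AS1, CYTOR and SNHG1, the 8 hosts of highest mean CPM, and every host past the threshold. The members and lists were chosen with earlier results of these data known. ADAR KO and GFP libraries of the same number share only that number, while the vehicle and IFN-β libraries of A549 with the same number and target share the sgRNA itself. Deviations of same-numbered libraries correlated between -0.25 and -0.0048, and the fits reported have no block. Intervals were not given for counts, and precision is that of the stated depth. Values of a few genes outside the members are not reported here.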

Additional observations from a re-analysis of the deposited data

Results flagged for a closer look

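In A549 the ADAR KO difference was larger with IFN-β than with vehicle for 7 hosts by the interaction term, which singled them out. The interaction was 1.33 for EPB41L4A-AS1, 1.12 for SNHG32, 0.99 for CYTOR, 0.88 for SNHG1, 0.77 for SNHG12, 0.71 for ZFAS1 and 0.63 for GAS5 on the log2 scale. Without the ADAR IFN-β sg2 library, 1 of the 7 hosts, SNHG32, passed the threshold.

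The ADAR KO difference of SNHG32 in the 3 other lines was lower than in A549 with IFN-β, by a test added after the data had been seen (-0.98 on the log2 scale). It did not pass without GFP IFN-β sg2, without ADAR IFN-β sg2 or without NCI-H196 GFP sg1.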

How the results depend on the processing

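Of 185 recomputed counts of hosts past the threshold, 133 stayed within 1.5 times the reported count and 52 did not. No named host changed sign where it was past the threshold. The number of all genes called moved between the fits too, so a moved count of hosts is not by itself a result about the hosts. The causes were not tested, except that leaving out overlapping hosts removes members.

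In HCC366 the count of 1 was 4 without the filter, 7 with GC and length offsets, 11 with all 20 libraries and 4 with DESeq2. These fits called 903 of 29655, 1090 of 11135, 3701 of 19523 and 299 of 29645 genes, against 139 of 11135 in the main fit. The count was 0 without hosts that overlap or resemble another gene. In NCI-H1650 the 5 were 0 with all 20 libraries and 2 with DESeq2. These fits called 159 of 19523 and 413 of 33364 genes, against 1250 of 14530 in the main fit. In NCI-H196 the 6 were 3 without the filter, 0 with all 20 libraries and 0 with DESeq2. These fits called 1552 of 33120, 98 of 19523 and 5 of 33113 genes, against 2513 of 14094 in the main fit. In each of these lines the count also moved with a library left out, where 1 library stands against 2. In the 3 lines together the 5 were 9 with offsets, 9 with all 20 libraries, 3 without overlapping hosts and 2 to 6 with a library left out. The fits with offsets and with all 20 libraries called 1629 of 16538 and 3148 of 19523 genes, against 876 of 16538 in the main fit. Those with a library left out called 308 to 1892 genes.

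In A549, the 7 interactions were 1 with all 20 libraries, where 164 of 19523 genes were called, against 780 of 15449 in the main fit. Leaving out overlapping hosts left 17 tested in place of 28. It changed the 11 with IFN-β to 7, the 2 of IFN-β in GFP cells to 0, the 13 in ADAR KO cells to 7 and the 7 interactions to 4. With a library left out these were 9 to 11, 2 to 3, 11 to 14 and 1 to 8, and the vehicle comparison gave 0 throughout. The added contrast against A549 with vehicle gave 6 with offsets, 1 with DESeq2 and 0 to 8 with a library left out (8 without HCC366 ADAR sg1), and that against A549 with IFN-β gave 3, 2 and 0 to 8.

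The sgRNA number as a replicate block gave 0 in NCI-H196, 1 in HCC366 and 2 in the 3 lines together. Those fits called 115 of 14094, 300 of 11135 and 362 of 16538 genes. With offsets as well it gave 0 in NCI-H196 and 11 in HCC366, where 29 of 14094 and 1663 of 11135 genes were called. In A549, a replicate block by the sgRNA shared between vehicle and IFN-β gave 2 hosts in GFP cells, 13 in ADAR KO cells and 8 interactions. Of all 15449 genes, 911, 3680 and 824 were called there. A crossed block in HCC366, chosen after seeing the data, gave 6, where 960 of 11135 genes were called. The shallow NCI-H196 GFP sg2 library limits what its controls can show.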

Other observations

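LINC00888, which RefSeq names SNHG33 and which the name rule did not take, stood at 3.20 CPM in GFP and 6.07 CPM in ADAR KO of A549 with IFN-β (log2 fold change 0.99, edgeR adjusted p = 0.0283).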
